A study of Mus musculus with 6 samples.

Results

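Immediate early response genes were followed here as a set of 10, chosen by gene symbol from those that a stimulus is known to switch on first: Fos, Fosb, Jun, Egr1, Ier2, Dusp1, Btg2, Atf3, Zfp36 and Nr4a1. The choice was made with earlier results of these data known. They were measured in whole testes of 3 mice that lacked the serine protease gene Prss37 and 3 wild-type mice. All were males of 6 to 8 weeks on C57BL/6, and no treatment is named for either genotype. Total RNA of each animal was amplified, labelled with Cy3 and hybridised to 1 single-colour Agilent 60-base oligonucleotide array. The set had 14 of the 41174 probes on the array. A gene was tested when a probe was well above background (in over 50% of its unflagged spots) on every array of at least 1 genotype, which 8 of the 10 members and 18975 genes in all met. Fos and Atf3 did not.

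Immediate early genes are switched on within minutes of a stimulus, without new protein synthesis, by factors that already sit in the cell. The kinases ERK, JNK and p38 act through the serum response factor and its ternary complex partners at CArG boxes, and protein kinase A acts through CREB at cAMP response elements. The products are transcription factors, such as the AP-1 subunits, and feedback proteins that switch off the kinases or destroy the messages. Their transcripts are short-lived, so a level in whole tissue can reflect recent signalling in any of the cell types present.

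Most immediate early genes had a lower average signal in knockout than in wild-type testes, but none passed the test. Of the 8 tested members 7 had a log2 difference below 0, where 50.7% of all tested genes did. At an adjusted p under 0.05 in limma, 0 members were lower and 0 were higher, against 1.25% and 1.21% of all genes and 2.46% in either direction. At an adjusted p under 0.1, 2 were lower (Dusp1 and Btg2) and 0 higher, against 4.79% and 5.05%. At an unadjusted p under 0.05, 5 members were lower and 0 higher, against 12.0% and 11.9%. Dusp1, Btg2 and Jun had all 3 knockout signals below all 3 wild-type signals, which 16.0% of all tested genes also had. The median log2 difference over the 8 members was -0.29, beside -0.002 over all genes tested. These 8 genes share the same 6 animals, so the median is a description and has no test. The counts beside all genes are descriptions too, since the set was chosen with earlier results of these data known. In whole tissue, fewer cells of a type and less RNA per cell cannot be told apart.

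The arrays were of even quality. The share of spots well above background was 69.2% to 71.4%, and no array had a saturated spot. The 75th percentile of the signal lay between 1550 and 1707. Signals below were scaled so that this percentile was 1617 on every array. Replicates 1 and 2 of each genotype lay on slide 1 and replicate 3 of each on slide 2, and the slides were scanned separately. Prss37 itself had scaled signals of 67592, 73824 and 71562 in knockout and 116135, 107860 and 124390 in wild type. Its log2 difference was -0.71 (SE 0.07, adjusted p = 0.024). This call held in 13 of 20 alternatives and was lost without knockout replicate 1, 2 or 3 or wild-type replicate 1 (adjusted p of 0.070, 0.12, 0.13 and 0.093), on slide 1 alone (0.11), when dim probes were kept (0.093) and given a replicate block (0.13). The Prss37 probe was well above background in the knockout, and the deleted part of the gene is not given in the labels, so whether the probe checks the genotype is not known. Title and source of the knockout samples name Prss37, while their description names Prss55. All 7 spermatid markers on a list that held Prm1, Tnp1 and Acr were well above background on all 6 arrays, as in testis.

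**Figure D1:**
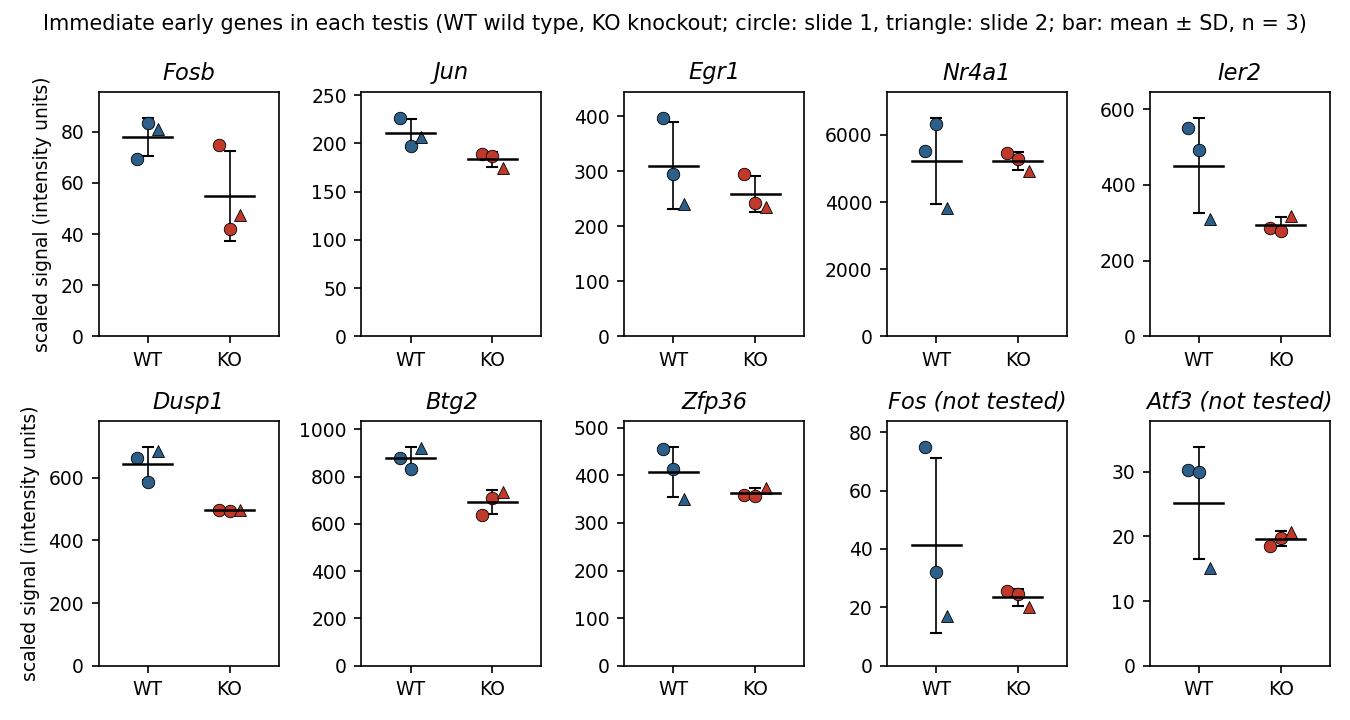
Scaled signal of each immediate early gene in each testis, on linear axes from 0, for wild type (blue) and knockout (red). Circles are arrays of slide 1, triangles arrays of slide 2, and bars the mean ± SD of 3 animals. Dusp1, Btg2 and Jun do not overlap between genotypes, while wild-type replicate 3 lies low in Ier2, Egr1, Nr4a1, Zfp36, Fos and Atf3.

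The AP-1 factors form dimers through leucine zippers, with a FOS or ATF protein joined to a JUN protein. Fosb encodes a FOS subunit and was read by 1 probe at chr7:19888477-19888536 on mm9. Its scaled signals were 69.4, 83.2 and 81.0 in wild-type replicates 1 to 3 and 74.8, 42.0 and 47.2 in the knockout replicates. Knockout replicate 1 lay among the wild-type values and the other knockout animals lay lower, so the groups overlapped. The probe was printed as 1 spot and was dim. On the 6 arrays the lowest signals of spots well above background were 28.8 to 36.0. The knockout mean was 54.7 ± 17.6 (SD, n = 3) and the wild-type mean 77.9 ± 7.38 (SD, n = 3). The log2 difference of Fosb was -0.55 (SE 0.22, 95% interval -1.09 to -0.01, adjusted p = 0.20). It was -0.80 (adjusted p = 0.096) without knockout replicate 1, and -0.21 (adjusted p = 0.38) with normexp background correction.

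Jun encodes the partner subunit. Its probe at chr4:94715864-94715923 was printed as 10 spots on each array, and their signals were averaged on the log scale. Jun signals were 226, 198 and 207 in wild type and 189, 187 and 175 in knockout. Each knockout animal was below each wild-type animal, by a small margin. Means were 184 ± 7.80 (SD, n = 3) and 210.2 ± 14.5 (SD, n = 3), a log2 difference of -0.19 (SE 0.06, 95% interval -0.35 to -0.04, adjusted p = 0.15). The Jun difference was -0.11 (adjusted p = 0.36) with normexp.

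Fos, the partner most often used as a marker of recent stimulation, was too dim to test. Its probe at chr12:86817900-86817959 was also printed as 10 spots. The averaged signals were 74.8, 32.0 and 16.9 in wild type and 25.7, 24.4 and 20.05 in knockout. Wild-type replicate 1 alone stood out, with 9 of 9 unflagged spots well above background and spot signals from 64.5 to 85.3. On the other arrays 1 to 5 of 10 spots were well above background, and on knockout replicate 1 the same probe ranged from 6.61 to 96.7 between spots, a 14.6-fold range. Jun spots, by comparison, ranged by 1.13-fold to 1.30-fold within an array. Counting an array as measured when over 50% of its Fos spots were above background left 1 of 3 wild-type and 0 of 3 knockout arrays. No fold is read as a result from these arrays, since only 1 of them measured the probe. Wild-type replicate 3 was also lower than all 3 knockout animals. The fit with no filter on dim probes rests mostly on signals not above background and is given as a description only. Its log2 difference was -0.56 (SE 0.55, adjusted p = 0.73), with -0.97 on slide 1 and 0.24 on slide 2.

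**Figure D2:**
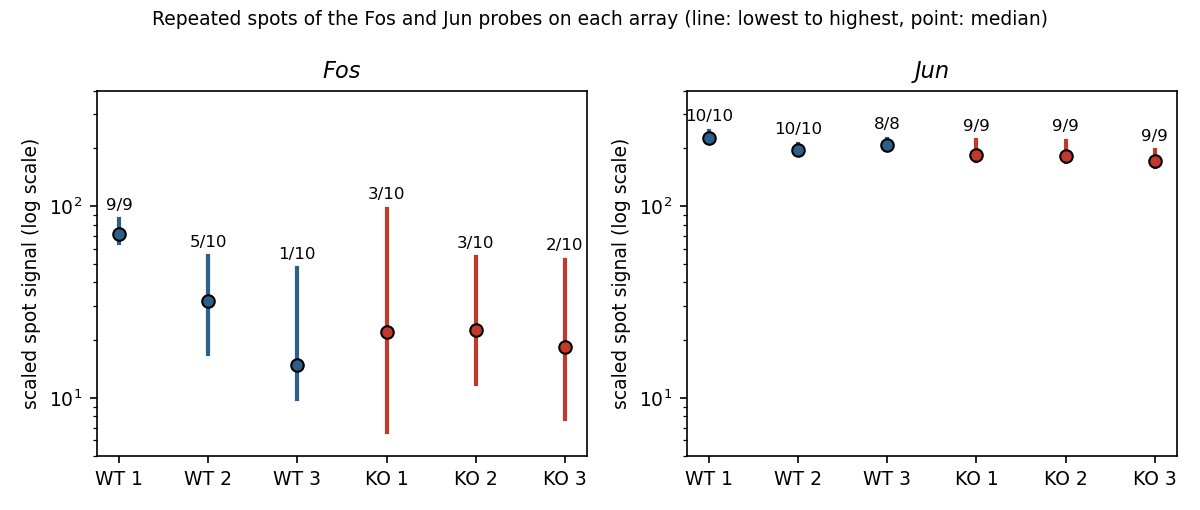
Signals of the repeated spots of the Fos and Jun probes on each array, on a log axis in scaled intensity units. Lines run from the lowest to the highest unflagged spot, points are medians, and the fractions give spots well above background. All 9 Fos spots were above background in wild-type replicate 1, against 1 to 5 of 10 elsewhere, and every Jun spot was.

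Atf3 encodes a stress-induced member of the same dimerising family, largely a repressor. Its probe at chr1:192994547-192994606 was not well above background on any of the 6 arrays. Its signals were 30.2, 30.0 and 15.1 in wild type and 18.5, 19.8 and 20.7 in knockout, and no fold is given for it.

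Egr1 and Nr4a1 encode DNA-binding factors outside AP-1. Egr1, a zinc finger factor induced through ERK, was read by a probe at chr18:35024395-35024454. Its signals were 396, 295 and 239 in wild type and 295, 242 and 236 in knockout. Wild-type replicate 1 was the highest and the remaining values ran together. The Egr1 difference was -0.24 (SE 0.19, 95% interval -0.72 to 0.23, adjusted p = 0.50), and -0.05 (adjusted p = 0.87) without wild-type replicate 1. It was -0.42 (adjusted p = 0.19) without wild-type replicate 3 and -0.41 (0.18) with array weights.

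Nr4a1 encodes an orphan nuclear receptor that luteinising hormone induces in Leydig cells. Its probe lies at chr15:101105071-101105130. Nr4a1 signals were 5526, 6314 and 3817 in wild type and 5458, 5289 and 4932 in knockout. The knockout values lay inside the wild-type range, with means of 5226 ± 269 (SD, n = 3) and 5219 ± 1276.5 (SD, n = 3). Its log2 difference was 0.03 (SE 0.18, 95% interval -0.42 to 0.48, adjusted p = 0.94). The direction turned to -0.18 (adjusted p = 0.23) without wild-type replicate 3, whose Nr4a1 signal was the lowest of the 6, and to -0.14 (adjusted p = 0.44) on slide 1 alone, -0.012 (adjusted p = 0.98) with normexp background correction and -0.046 (adjusted p = 0.86) with array weights.

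Ier2, a nuclear protein of the early response whose biochemical role is less well defined, had the lowest log2 difference among the tested members when each gene was read by its brightest probe. Its brighter probe spans chr8:87185211-87185245 in the file's coordinates. Ier2 signals were 549.9, 492 and 309.9 in wild type and 286, 279 and 317 in knockout. Wild-type replicates 1 and 2 stood far above every knockout animal, and wild-type replicate 3 lay among them. The knockout mean was 294 ± 20.3 (SD, n = 3) and the wild-type mean 451 ± 125 (SD, n = 3), a log2 difference of -0.58 (SE 0.21, 95% interval -1.10 to -0.05, adjusted p = 0.18). The difference was -0.88 on slide 1 and 0.03 on slide 2. Without wild-type replicate 3 it was -0.83 and passed the test (adjusted p = 0.031). A second Ier2 probe, which starts at base 3068 of its transcript, read 104, 125 and 103 in wild type and 107, 85.1 and 87.8 in knockout, a log2 difference of -0.25 (adjusted p = 0.27 with each probe fitted on its own).

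The feedback genes Dusp1 and Btg2 had the smallest p-values of the set. Dusp1 encodes a nuclear phosphatase that removes the activating phosphates from ERK, JNK and p38. The file places its probe at chr17:26642526-26642536, where it gives only part of the 60 bases. Dusp1 signals were 664, 586 and 684 in wild type and 498, 495 and 498 in knockout. All wild-type animals were above the knockout animals, whose values were nearly equal. Means were 497 ± 1.87 (SD, n = 3) and 645 ± 52.0 (SD, n = 3). The log2 difference was -0.37 (SE 0.07, 95% interval -0.53 to -0.21), 1.29-fold lower, with an adjusted p of 0.051, just over the threshold. It was -0.33 on slide 1 and -0.46 on slide 2. Dusp1 passed without wild-type replicate 2 (-0.44, adjusted p = 0.030), while the adjusted p with another array left out ran up to 0.17. It also passed with normexp (adjusted p = 0.048), with probes above background on all arrays (0.045), under array weights (0.029) and when the variance followed a trend with robust fitting (0.024).

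Btg2 encodes an antiproliferative protein that recruits the CCR4-NOT complex, which shortens poly(A) tails. It had 3 probes. The brightest, at chr1:135973916-135973975, read 879, 832 and 923 in wild type and 638, 708 and 733 in knockout. The genotypes did not overlap, and the mean was 693 ± 49.5 (SD, n = 3) for knockout animals against 878 ± 45.6 (SD, n = 3) for wild-type animals. Its log2 difference was -0.34 (SE 0.07, 95% interval -0.51 to -0.17), 1.27-fold lower, with an adjusted p of 0.062. It was -0.35 on slide 1 and -0.33 on slide 2. Btg2 passed under array weights (adjusted p = 0.048) and when the variance followed a trend with robust fitting (0.030).

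All 3 Btg2 probes had differences below 0, and whether they differ from each other was not tested. The probe that starts at base 284 of the transcript read 441, 368 and 425 in wild type and 285, 318 and 319 in knockout, again without overlap, a log2 difference of -0.42 (adjusted p = 0.070 with each probe fitted on its own). The probe that starts at base 2371 read 206, 183 and 132 in wild type and 175, 159 and 139.9 in knockout, with overlap and a difference of -0.12 (adjusted p = 0.74). The mean over the 3 probes had a difference of -0.29 (adjusted p = 0.073).

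Zfp36 encodes tristetraprolin, a zinc finger protein that binds AU-rich elements and speeds the decay of short-lived messages. Its brighter probe lies at chr7:29162132-29162191. Zfp36 signals were 455, 414 and 351 in wild type and 359, 357 and 374 in knockout. Wild-type replicates 1 and 2 were above all knockout animals and wild-type replicate 3 was below them. The log2 difference was -0.15 (SE 0.10, 95% interval -0.39 to 0.08, adjusted p = 0.39), with -0.28 on slide 1 and 0.09 on slide 2. It was -0.069 (adjusted p = 0.70) without wild-type replicate 1, -0.26 (0.080) without wild-type replicate 3 and -0.077 (0.72) with normexp. The second Zfp36 probe read between 14.8 and 22.3, which was never well above background.

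Promoters in RefSeq (GRCm38.p6) were matched for 8 of the 10 members and searched on both strands from 250 bases before to 50 bases after the start. Ier2 and Egr1 had no promoter to search. The full cAMP response element TGACGTCA was found in 2 of the 8, Dusp1 and Btg2, and in 1.79% of all 32851 promoters in the table. Its first 5 letters, TGACG, which every full element also holds, were found in 6 of the 8 (Atf3, Btg2, Dusp1, Fos, Fosb and Nr4a1) and in 20.8% of all. A CArG box was found in Zfp36 only among these 8, and in 1.63% of all. The EGR site GCGGGGGCG was found in Fosb, Nr4a1 and Zfp36 and in 2.91% of all, while GCGTGGGCG and the AP-1 site TGANTCA were found in 0 of the 8, and in 0.612% and 7.81% of all. A match describes letters in this window and does not show that a factor binds. Sequence outside the window was not searched, so a member without a match may hold the element elsewhere. The 250 bases before the start are shown for the pair with the smallest p-values, with the cAMP response element in capitals, and for Zfp36 with the CArG box in capitals. All are on the minus strand, at chr17:26508473-26508722 for Dusp1, chr1:134079156-134079405 for Btg2 and chr7:28379229-28379478 for Zfp36.
Dusp1: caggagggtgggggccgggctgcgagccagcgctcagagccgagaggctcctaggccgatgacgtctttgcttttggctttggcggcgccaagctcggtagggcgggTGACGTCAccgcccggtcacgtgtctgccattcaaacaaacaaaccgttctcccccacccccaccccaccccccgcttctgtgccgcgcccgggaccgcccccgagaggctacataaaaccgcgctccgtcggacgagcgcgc
Btg2: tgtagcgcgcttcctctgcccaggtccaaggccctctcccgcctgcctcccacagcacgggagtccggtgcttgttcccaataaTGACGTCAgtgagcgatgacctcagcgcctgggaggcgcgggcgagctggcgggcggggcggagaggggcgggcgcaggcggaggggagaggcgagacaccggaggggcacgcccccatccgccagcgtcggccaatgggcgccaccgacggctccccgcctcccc
Zfp36: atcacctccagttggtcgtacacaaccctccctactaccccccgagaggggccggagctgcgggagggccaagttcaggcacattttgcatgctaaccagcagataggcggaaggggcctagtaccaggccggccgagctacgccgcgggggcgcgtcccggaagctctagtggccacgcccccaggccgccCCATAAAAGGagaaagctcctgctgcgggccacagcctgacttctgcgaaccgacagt

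The element starts 143 bases before the Dusp1 start and 166 bases before the Btg2 start, and the CArG box 58 bases before the Zfp36 start. These promoters were chosen for display after the values had been seen.

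The array's own probes show the kind of sequence that tristetraprolin binds. The AU-rich nonamer, TTATTTATT in DNA letters, was found in 2 of the 14 member probes and in 0.219% of all 41174 probes, read on the probe strand. The matches are the Dusp1 probe and the dim second probe of Zfp36. A stretch of 27 bases from each is shown with the nonamer in capitals, and this search was also chosen after the values had been seen.
Dusp1: tttttacctTTATTTATTtttgtgtag
Zfp36: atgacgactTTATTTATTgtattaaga

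Across the 6 testes the members varied between animals of one genotype as well as between genotypes. After centring each of the 8 tested members on its mean, the median over members was 0.22, 0.10 and -0.02 in wild-type replicates 1, 2 and 3 on the log2 scale. It was -0.07, -0.16 and -0.17 in the knockout replicates. All 8 members were above their own mean in wild-type replicates 1 and 2, 4 were in wild-type replicate 3, and 3, 1 and 0 were in the knockout replicates. Wild-type replicate 3 was the only wild-type array on slide 2, so within wild type its lower values and its slide cannot be told apart. Knockout replicate 3, also on slide 2, was the highest knockout animal in Ier2 and Zfp36 and the lowest in Egr1 and Nr4a1. A part of the slide in these values was not tested. Spread was larger in wild type than in knockout for 6 of the 8 members, beside 68.1% of all genes, and Dusp1 had log2 SDs of 0.12 and 0.0054.

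**Figure D3:**
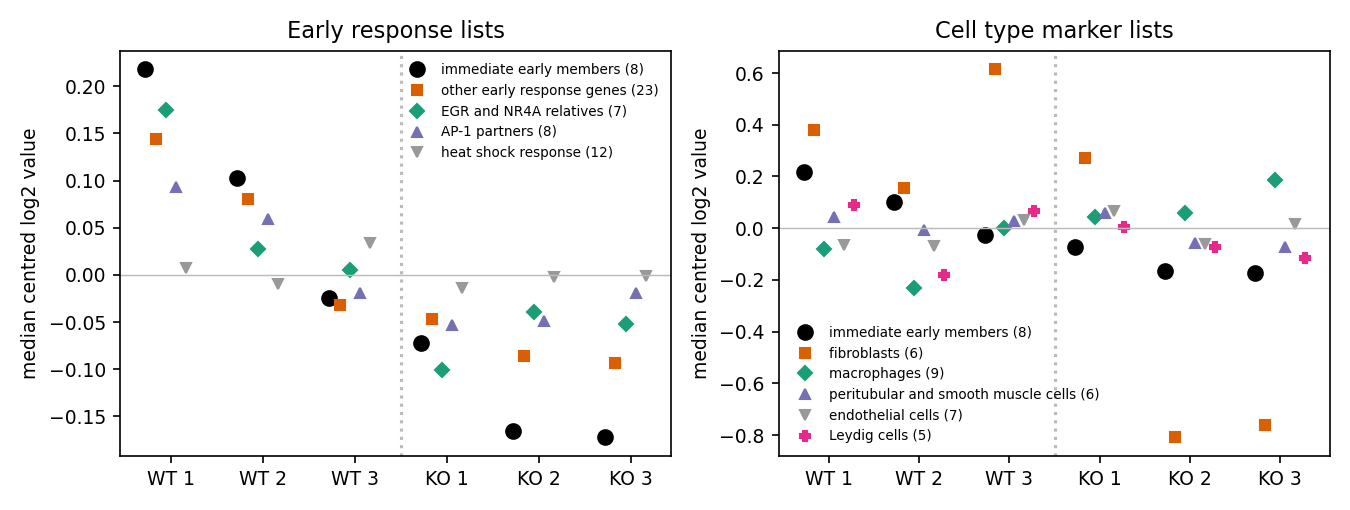
Median centred log2 value of gene lists in each testis, with the number of genes in brackets. The left panel sets the immediate early genes (black) beside related lists and the right panel beside cell type markers. The immediate early median runs from 0.22 in wild-type replicate 1 to -0.17 in knockout replicate 3, and the fibroblast median is -0.81 and -0.76 in knockout replicates 2 and 3 but 0.27 in knockout replicate 1.

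The genes closest to this profile were named by the smallest root mean square difference from the members' median centred values over the 6 arrays. They were Klf10 (0.027 on the log2 scale), Ago3 (0.032), Vamp4 (0.032), Mis12 (0.034) and 0610030E20Rik (0.036). Among the members the same measure ran from 0.069 in Jun to 0.31 in Fosb. Klf10, a zinc finger factor induced early by TGF-beta, had signals of 1642, 1556 and 1380 in wild type and 1365, 1296 and 1261 in knockout. The log2 difference of Klf10 was -0.22. These 5 genes were chosen for their likeness to a profile that is lower in knockout, so their own differences restate that choice and are given with no test.

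Relatives of the members and other early response genes were counted over 6 lists. These lists too were chosen with earlier results of these data known, so the counts are descriptions. Of 67 such genes 61 were tested. In them 3 passed the test as lower and 0 as higher, beside 1.25% and 1.21% of all genes. A difference below 0 was found in 41, beside 50.7% of all genes, and the median was -0.06. Without overlap between genotypes, 20 were lower and 7 higher, beside 16.0% and 15.5% of all genes. The 7 include Npas4, which met the filter for testing only through its knockout arrays.

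**Figure D4:**
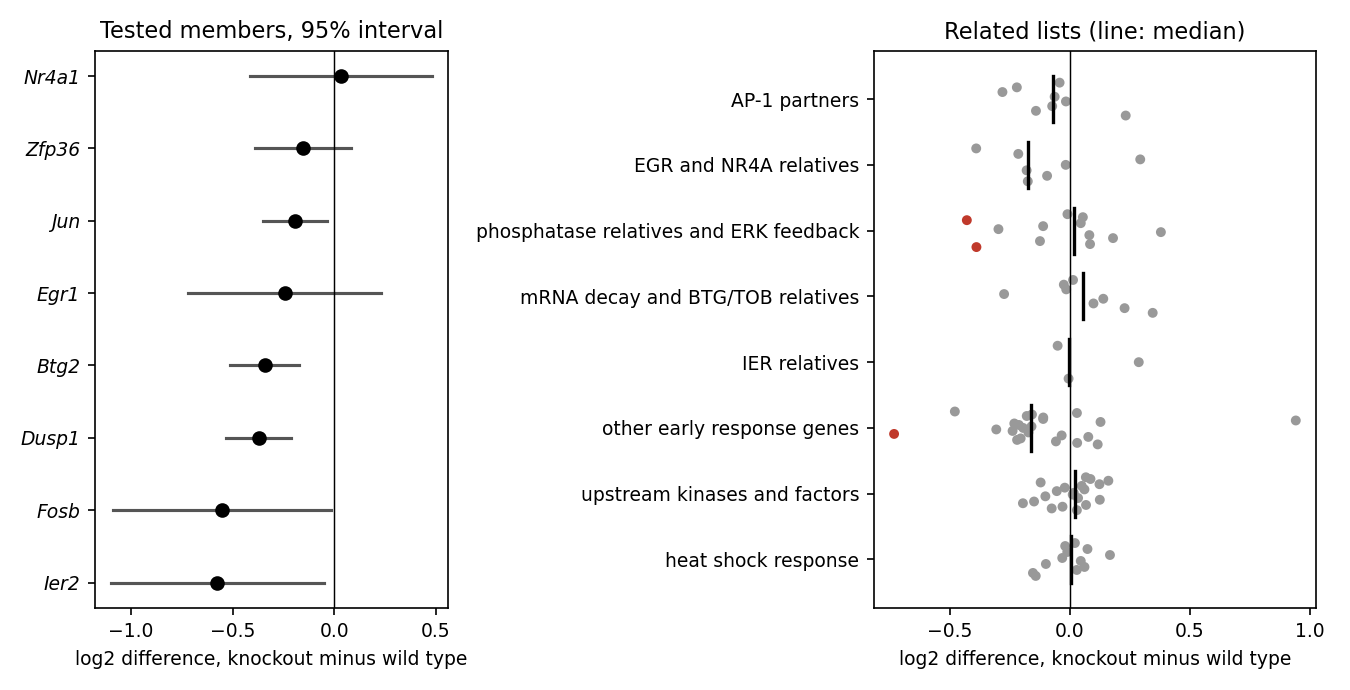
Log2 difference of knockout minus wild type. The left panel gives the 8 tested immediate early genes (black points, none of which passed the test) with 95% intervals from limma, and the right panel each tested gene of the related lists, with black lines at the list medians and red points for genes that passed the test. Nr4a1 sits at 0.03 and Ier2 at -0.58, and the 3 red points are Cebpb, Spry2 and Dusp2.

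Among the phosphatase relatives and other brakes on ERK signalling, 2 of 12 tested genes passed as lower and 0 as higher. Over all genes tested the shares were 1.25% and 1.21%. The list had 6 genes below 0 and 6 above, with a median of 0.02. Dusp10, named after its value was seen, had 0.38 (adjusted p = 0.054) and was higher without overlap. Spry2, a Sprouty inhibitor of receptor tyrosine kinase signalling, had signals of 415, 375 and 387 in wild type and 276, 289 and 309 in knockout. It fell 1.35-fold (log2 difference -0.43, SE 0.06, adjusted p = 0.042). Its other tested probe had a difference of 0.03 when fitted on its own, and the mean of both Spry2 probes had one of -0.20 (adjusted p = 0.11). Dusp2, a phosphatase of the same family as Dusp1, had signals of 2363, 2296 and 2592 in wild type and 1825, 1795 and 1910.2 in knockout. It fell 1.31-fold (-0.39, SE 0.06, adjusted p = 0.044), with its other probe at -0.13 and the mean of both at -0.26 (adjusted p = 0.0495).

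Among 23 tested other early response genes, Cebpb alone passed as lower and 0 as higher, beside 1.25% and 1.21% of all genes. Of the 23, 17 were below 0, beside 50.7% of all genes, with a median of -0.16. Without overlap 9 were lower and 2 higher, beside 16.0% and 15.5% of all genes. Those 2, named after their values were seen, were Arc at 0.13 (adjusted p = 0.15) and Npas4. Npas4 was dim, and well above background on 3 knockout arrays but only 1 wild-type array. It met the filter for testing only through the group where it was high. Its place in the count is therefore no support for a rise, and no difference is given for it. Cebpb, a leucine zipper factor of inflammatory and metabolic responses, had signals of 557, 529 and 503 in wild type and 338, 305 and 314 in knockout. The fall was 1.66-fold (-0.73, SE 0.06, adjusted p = 0.018), with -0.76 on slide 1 and -0.68 on slide 2. Its other probe had a difference of 0.02, and the mean of both probes one of -0.35 (adjusted p = 0.061). These 3 calls depended on single arrays and on the processing. Without knockout replicate 1, 2 or 3 or wild-type replicate 1, the adjusted p of Spry2 was 0.12, 0.15, 0.13 and 0.12 and that of Dusp2 0.13, 0.15, 0.14 and 0.12. Without wild-type replicate 3 that of Spry2 was 0.056. Without knockout replicate 2 or 3 or wild-type replicate 1, the adjusted p of Cebpb was 0.11, 0.097 and 0.077. Blocking on slide gave adjusted p-values of 0.062 for Spry2 and 0.0503 for Dusp2, while Cebpb passed (0.033). With normexp it was 0.057 for Spry2 and 0.061 for Dusp2, and on slide 1 alone it was 0.13 for both and 0.10 for Cebpb. With no filter on dim probes it was 0.13 for Spry2 and Dusp2 and 0.078 for Cebpb, and with a replicate block 0.14, 0.13 and 0.097 for Spry2, Dusp2 and Cebpb. Dusp2 was also just lost with each probe on its own (0.051).

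Over all genes tested, 50.7% had a difference below 0. Of 8 tested AP-1 partners, 0 passed and 7 were below 0 (median -0.07). Atf2, a partner of JUN, had -0.22 (SE 0.04, adjusted p = 0.054). Its other 3 probes were at 0.16 (higher without overlap), 0.008 (with overlap) and -0.22 (lower without overlap). The mean of all Atf2 probes had a difference of -0.067 (adjusted p = 0.45). Fosl1, a further FOS family member, had 0.23 (adjusted p = 0.095). Of 7 EGR and NR4A relatives, 0 passed and 6 were below 0 (median -0.18). Egr4 had -0.18 (adjusted p = 0.13) and Nr4a2 -0.21 (0.16, and -0.14 with normexp). Nr4a3, named after its value was seen as the lowest of this list, had -0.39 (0.17).

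Genes of mRNA decay and the BTG and TOB family had a median of 0.06 with 0 of 8 passing. Tob1, which like Btg2 binds the deadenylase complex, had -0.27 (adjusted p = 0.062), while Zfp36l1, the close relative of Zfp36, had 0.35 (0.091). Of 3 IER relatives 0 passed, with Ier5 at 0.29 (adjusted p = 0.26, and 0.13 without wild-type replicate 3 and 0.12 on slide 1 alone) and Ier5l at -0.05 (0.62, and a difference of 0.0083 with normexp). Of 20 upstream kinases and factors 0 passed, with 8 below 0 and a median of 0.02, Crem at 0.12 (adjusted p = 0.16) and Rps6ka2 at 0.16 (0.19). The heat shock response, another rapid stress program, had 0 of 12 passing, 6 below 0 and a median of 0.0051, with Hspb1 at 0.17 (adjusted p = 0.11) and Hspa1a at -0.14 (0.12).

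Markers of other cell types were set beside these values. Over all genes tested, 50.7% were below 0, and 1.25% and 1.21% passed as lower and higher. Of the fibroblast markers 6 of 6 were below 0, with 0 passing and a median of -0.86, and their summed signal was 29522 to 48371 in knockout and 46217 to 59473 in wild type. Col1a1, a fibrillar collagen gene, had signals of 2774, 1017 and 1071 in knockout and 3197, 2953 and 3675 in wild type (-1.17, adjusted p = 0.15), and Col3a1 had -1.08 (0.15). Without knockout replicate 1 both passed, at -1.64 (adjusted p = 0.022) and -1.52 (0.031). That was the only 1 of 20 alternatives in which either passed, and their adjusted p ran up to 0.40 and 0.42. Knockout replicate 1 was near the wild-type level of both collagens and knockout replicates 2 and 3 were not. Pdgfra, a growth factor receptor of fibroblasts and the only marker on the list that encodes no matrix protein, had -0.026 (adjusted p = 0.89). Fosb, read by 1 dim spot per array, followed the same order of knockout animals. Egr1 was also highest in knockout replicate 1 among them (295, against 242 and 236). Jun and Nr4a1 were highest there by smaller margins. Dusp1 was nearly equal in the knockout animals, Btg2 was lowest in knockout replicate 1, and Ier2 and Zfp36 were highest in knockout replicate 3. The part of fibroblast content in any of these differences was not tested.

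Macrophage markers were higher, with 9 of 9 above 0, 0 passing and a median of 0.23, and with summed signals of 20612 to 26016 in knockout and 16233 to 20922 in wild type. Cd163 had 0.36 (adjusted p = 0.072, and 0.24 with normexp) and Csf1r 0.16 (0.15). Medians were -0.02 for peritubular and smooth muscle markers, with 4 of 6 below 0, 0.10 for endothelial markers, with 3 of 7, -0.04 for Leydig markers, with 3 of 5, and 0.02 for Sertoli markers, with 1 of 7. Spermatogonial, spermatocyte and spermatid markers had medians of 0.02, 0.03 and 0.08, adipocyte markers -0.04 and epididymis markers -0.07. None of these genes passed. Of the blood markers, 2 were tested, with a median of 0.14, and they went opposite ways. Alas2, the heme synthesis enzyme of red cell precursors, rose 1.44-fold (adjusted p = 0.039). The globin gene Hba-a1 had -0.25 (adjusted p = 0.71), with overlap between genotypes. The Alas2 call held in 11 of 20 alternatives, and the adjusted p ran up to 0.15 with 1 array left out. The neutrophil genes S100a8 and S100a9 and the epididymal genes Defb1, Lcn5, Lcn8 and Crisp1 did not reach the level for testing.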

How the data were processed

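Scanner files were deposited as 1 Agilent Feature Extraction output per array (design 014868, coordinates mm9 and version 10.7.3.1, per the file headers, where the submitters' processing notes have 10.7). The processed signal is an intensity already corrected for background, per the file headers. The authors also deposited a table of log2 values with equal distributions in all columns, whose normalization is not given in the sources used here. Spot flags and probe positions are other columns that were deposited and were taken unchanged.

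Control spots and 86 to 159 flagged spots per array were left out. Each array's 75th percentile was subtracted from its log2 processed signals, and spots of one probe were averaged. An array measured a probe when over 50% of its spots were well above background. The brightest tested probe (28306 tested) stood for a gene. Probes were named through RefSeq accessions (27761), symbols (5531) or synonyms (460), and 7422 kept the file's name. Genotypes were compared over all 6 arrays by lmFit and eBayes of limma 3.58.1 in R 4.3.3, adjusting p-values over 18975 genes after Benjamini and Hochberg, with calls at adjusted p under 0.05. The number of arrays limits precision. The series' design text counts mice, so an array is 1 animal. The fit was tested on simulated data drawn independently for each gene and array, with no slide effect. That run says nothing about slide effects or effects shared by the genes of an animal. The members and lists were chosen with earlier results of these data known. Genes outside the set were named by list: those that passed, or the 2 of smallest p. Some others, such as Dusp10, Npas4, Arc and Hba-a1, were named after their values were seen. The alternatives changed background correction, normalization, value source, filter, flags, probe rule, variance model, block, slide, threshold and single arrays.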

Additional observations from a re-analysis of the deposited data

How the results depend on the processing

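The count of 0 members higher held under every alternative run. The count of 0 members lower became 1 with normexp and with probes above background on all arrays (Dusp1 in both), 2 under array weights and 2 when the variance followed a trend (Dusp1 and Btg2 in both), 2 at adjusted p under 0.1, 5 at unadjusted p under 0.05, and 0 to 1 with an array left out (Dusp1 without wild-type replicate 2, Ier2 without wild-type replicate 3). The median difference of the members stayed within 1 SD between arrays (0.095), from -0.34 with array weights to -0.21 with normexp, and from -0.32 to -0.24 with an array left out. Over all genes, 230 higher and 237 lower became 2 and 6 when dim probes were kept, 125 and 150 for averaged probes, 132 higher for probes fitted singly, 691 and 579 under a variance trend, 805 and 662 under array weights, 30 and 49 given a slide block, 5 and 16 on slide 1 alone, 959 and 908 at adjusted p under 0.1, and 2251 and 2281 at unadjusted p under 0.05. With 1 array fewer, counts ran from 0 to 463 (higher) and from 2 to 358 (lower). The cause was not tested. The replicate block gave 0 higher and 2 lower genes and 0 members. Deviations of same-numbered arrays correlated at -0.03, -0.03 and 0.16, and 2 of 6 arrays were closest to their own number. Replicates 3 also share slide 2, and replicates 1 and 2 share slide 1, so a shared number and a shared slide cannot be told apart for replicate 3, and the numbers were not taken to pair the samples.

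For 34 single genes, 680 values under alternatives kept direction and side of the threshold 610 times, with 44 calls lost, 21 gained and 5 reversed: Nr4a1 at -0.012 with normexp, -0.046 with array weights, -0.14 on slide 1 alone and -0.18 without wild-type replicate 3 (from -0.18 to 0.19 over arrays left out), and Ier5l at 0.0083 with normexp. Signal over background limits Fos and Atf3.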
